A study of Caenorhabditis elegans with 24 samples.

Results

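The *eif-3* genes of *Caenorhabditis elegans* encode the subunits of eukaryotic translation initiation factor 3 (eIF3), and 10 of them (*eif-3.B*, *C*, *D*, *E*, *F*, *G*, *H*, *I*, *K* and *L*) were followed through every library of the series. The rule that chose them used their names and no measured value, though earlier results of these data were known when they were chosen. Each name was matched to its WormBase gene, and all 10 were found in both deposited expression tables, among 12958 genes in one and 14206 in the other, and passed the filter on low values (1 CPM, counts scaled to library size, or more in 25% or more of a table's libraries) together with 12634 and 13613 genes in all. Of the other eIF3 subunits, *egl-45* (eIF3A), *cif-1* (eIF3M) and *eif-3.J* are listed under those names and were read beside them.

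The study sequenced polyA RNA from 24 libraries in 8 groups of 3. In the first experiment, whole animals of strain JTL642, which carries *daf-2(e1370)*, a reduction-of-function allele of the insulin/IGF-1 receptor, a degron and GFP on endogenous *hsf-1*, and the auxin receptor subunit TIR1 under the germline promoter *sun-1p*, received 1 mM auxin or 0.25% ethanol. Treatment ran for 16 h from the young adult stage or for 88 h from egg lay, so that HSF-1 protein was depleted from germ cells only and the 4 groups share the *daf-2* allele. In the second experiment, germline nuclei and whole worm lysates of young adults were taken from the same *daf-2* strain and from JTL621, called wild type, which has the same *hsf-1* and TIR1 alleles, *unc-119(ed3)* and a normal *daf-2* gene. No group lacks the degron tag or TIR1, and each genotype is 1 strain.

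eIF3 is the largest of the initiation factors. It binds the small ribosomal subunit, helps to load the eIF2-bound initiator tRNA and the mRNA, and keeps the large subunit away until the start codon is found. In animals its core is a ring of PCI-domain subunits (A, C, E, K, L and M) and MPN-domain subunits (F and H), an architecture shared with the lid of the proteasome and the COP9 signalosome. B, I and G form a peripheral module, D contacts the mRNA channel and can bind the mRNA cap in human cells, and J is a loosely attached partner. In *C. elegans*, worms without *eif-3.K* or *eif-3.L* are viable, resist stress of the endoplasmic reticulum and live longer, and *cif-1* is named for its place in both eIF3 and the COP9 signalosome.

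The genes lie on 4 chromosomes of the WBcel235 assembly and are short. *eif-3.C*, *eif-3.E*, *eif-3.H* and *eif-3.I* are on chromosome I and *eif-3.B*, *eif-3.F*, *eif-3.G* and *eif-3.L* on chromosome II. *eif-3.D* spans positions 8969635 to 8971578 of chromosome III on the minus strand, with 1809 exonic bases. *eif-3.K* spans 12954002 to 12955229 of chromosome V on the plus strand, with 841 exonic bases, the fewest of the 10. *eif-3.L*, on the minus strand of chromosome II at 5619584 to 5622483, has 1964 exonic bases. *eif-3.J* covers 13435489 to 13437963 of chromosome I on the plus strand, and 1566 of its bases are intronic. 3 members overlap a gene on the other strand at an end, *eif-3.D* with *rpap-2* by 24 bases, *eif-3.H* with *cps-6* by 28 and *eif-3.K* with *mpst-7* by 20. The libraries were directional, but the counting settings the study lists include no strand option, so reads in those few bases could not be told apart by strand.

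The libraries of the 2 experiments differed in depth and composition. Depth, read back from the spacing of low values, came to 20.9 to 38.0 M reads for the depletion experiment, 13.9 to 19.3 M reads for the nuclei and 21.9 to 28.8 M reads for whole worms beside them. Ribosomal RNA genes took 62.1 to 72.9% of the deposited values in wild-type nuclei and 37.9 to 66.8% in *daf-2* nuclei, against 15.8 to 35.1% in wild-type and 9.34 to 13.3% in *daf-2* whole worms, which left 5.11 to 8.64 M reads outside rRNA genes in a nuclei library. The second *daf-2* nuclei library stood apart, with the 37.9% share of rRNA and with 16.2% of its values in mitochondrial protein genes, against 4.68 to 6.77% in the other nuclei. Of 8 germ line markers, 1 (*rec-8*) was at 0 in a *daf-2* nuclei library, and their median difference between nuclei and worms, -0.33 log2 units in wild type and -0.54 in *daf-2*, was close to that of all genes (-0.34 and -0.63). The 8 intestinal markers had medians of -2.54 and -3.39 in the same comparisons, and *ges-1* and *elt-2* were at 0 in a *daf-2* nuclei library. The 6 body wall muscle markers stood at -2.59 and -2.82. Neuronal markers, at -0.37 and -0.53, were not reduced in this way. Their summed CPM overlapped in wild type and was higher in *daf-2* nuclei (69.8 to 93.6 against 53.5 to 57.0). The 6 hypodermal markers summed to 188.4 to 273.2 CPM in wild-type nuclei against 626.6 to 996.8 in worms. In *daf-2* they summed to 219.5 to 284.5 against 1221 to 1449 CPM. Summed pharyngeal markers were lower in wild-type nuclei (30.7 to 46.9 against 47.5 to 107.0 CPM) and overlapped in *daf-2*. The 6 sperm markers summed to 414.9 to 574.4 CPM in wild-type nuclei against 166.3 to 344.8 CPM in worms, and to 166.6 to 261.5 against 99.5 to 138.0 CPM in *daf-2*, higher in nuclei without overlap. Under the deposited scaling, signal of intestine, muscle and hypodermis was thus lower in nuclei, while the germ line markers were not raised above the average gene. By summed CPM, signal of sperm genes was higher in nuclei of both genotypes and that of neuronal genes in *daf-2* only. With values scaled to the sum outside rRNA genes, the median of all genes was -1.15 in wild type and -1.76 in *daf-2*. Marker sums were not compared on that scale, so their directions hold for the deposited values only. Auxin lowered *hsp-90*, a chaperone gene and HSF-1 target, by a log2 fold change of -0.94 after 16 h and -0.90 after 88 h (limma, adjusted p = 0.000481 and 0.000488) and *hsp-1*, another chaperone gene, by -0.82 and -0.83 (adjusted p = 0.0385 and 0.0274), whereas the mRNA of *hsf-1* itself is no check, since the degron acts on the protein.

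In whole *daf-2* animals the 10 members differed severalfold in level, in an order that changed little between groups. With levels divided by exon length, the order in 16 h controls ran from *eif-3.G* (160.3 ± 1.45 CPM per kb, SD, n = 3) and *eif-3.C* (149.0 ± 9.61) through *eif-3.I* (116.6 ± 6.22), *eif-3.D* (107.6 ± 5.15), *eif-3.B* (83.5 ± 22.4), *eif-3.K* (79.3 ± 2.86), *eif-3.E* (73.6 ± 1.34) and *eif-3.F* (60.2 ± 1.58) to *eif-3.L* (38.7 ± 1.36) and *eif-3.H* (30.1 ± 1.93). The highest was 5.32 times the lowest. The libraries of neighbors in this order did not overlap for 7 of the 9 neighboring pairs. *eif-3.I* and *eif-3.D* overlapped, as did *eif-3.B* and *eif-3.K*. The order was held with small exchanges in the other whole-animal groups of that experiment, where the ratio of highest to lowest was 5.30 (16 h depletion), 5.14 (88 h control) and 4.78 (88 h depletion). *eif-3.G* and *eif-3.C* led and *eif-3.L* and *eif-3.H* came last in each of the 4 groups.

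*eif-3.B*, which encodes the scaffold of the peripheral module, varied most between the 16 h libraries. It had 149.6, 254.9 and 245.2 CPM in the 3 controls and 183.6, 185.0 and 249.7 CPM after 16 h of auxin. The first control was the lowest of all 12 libraries, and the groups overlapped.

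**Figure D1:**
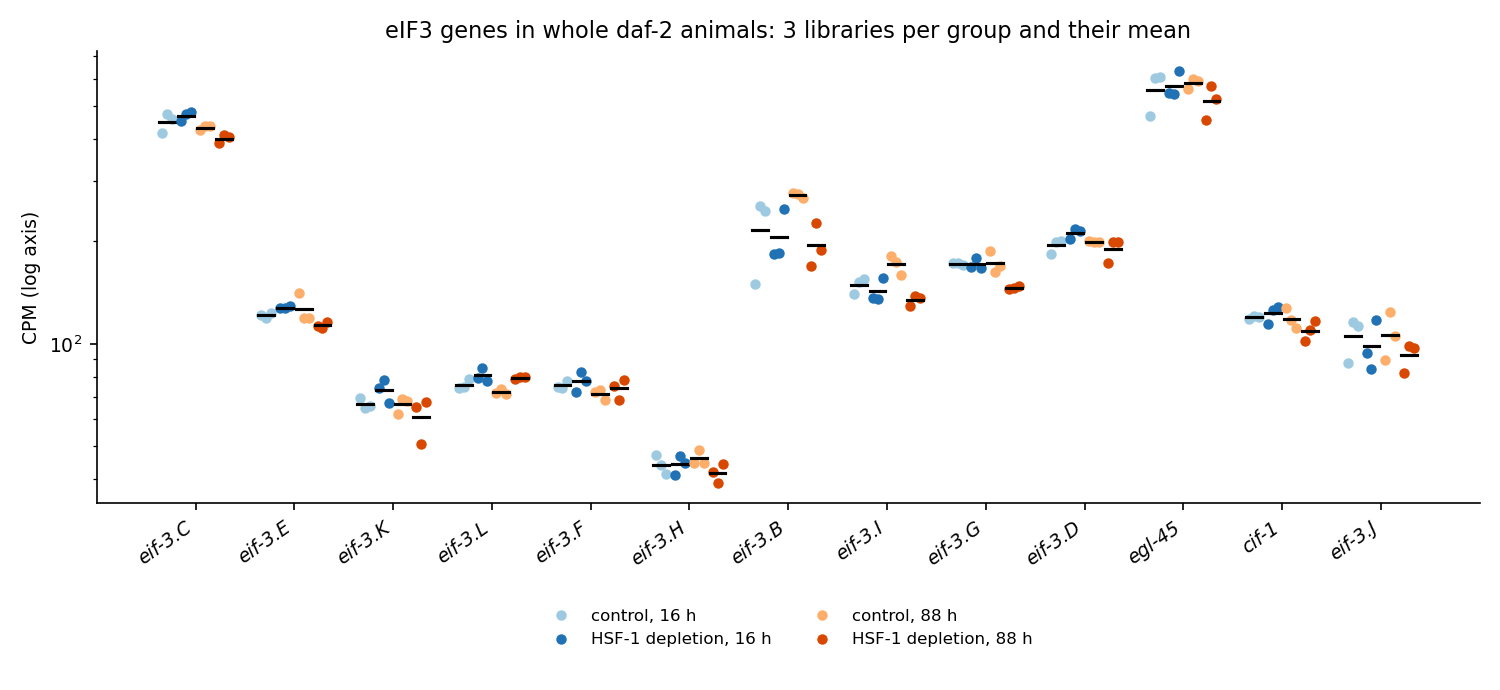
CPM (log axis) of the 10 eIF3 members and of *egl-45*, *cif-1* and *eif-3.J* in whole *daf-2* animals; each point is a library, each black bar the mean of the 3 libraries of a group. For most genes the 4 groups lie within a narrow band; *eif-3.B* spreads from 149.6 to 277.1 CPM.

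The first question was whether loss of HSF-1 from the germline changed eIF3 expression. After 16 h of auxin, 0 of the 10 members passed the test (limma on log2 CPM, fitted to all 12 libraries without a replicate block, adjusted p under 0.05 over 12634 genes), and 0 had an unadjusted p under 0.05. In all, 0.0792% of genes passed and 4.43% had such an unadjusted p. The median log2 fold change of the members was 0.05, against 0.01 for all genes tested, with values from -0.06 (*eif-3.I*) to 0.13 (*eif-3.K*). Most intervals were narrow. That of *eif-3.G* ran from -0.14 to 0.13 and that of *eif-3.L* from -0.03 to 0.21, while that of *eif-3.B* was wider, from -0.47 to 0.38. *eif-3.D*, with 183.9, 199.4 and 200.5 CPM in controls and 203.0, 217.0 and 215.2 CPM after auxin, and *eif-3.E*, with 119.1 to 123.5 and 127.0 to 129.1 CPM, were the 2 members whose libraries did not overlap, both higher after auxin, where 7.02% of all genes were higher without overlap.

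After 88 h of auxin, 0 of the 10 members passed the same test, as did 0.103% of all genes, but 5 had an unadjusted p under 0.05 (*eif-3.B*, *E*, *G*, *I* and *L*), a level that 5.95% of all genes reached. The groups did not overlap for 7 members, 6 lower (*eif-3.B*, *C*, *E*, *G*, *H* and *I*) and 1 higher (*eif-3.L*) after auxin. Over all genes, 5.49% were lower and 5.37% higher without overlap. The median log2 fold change was -0.14, against -0.02 for all genes.

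The peripheral module held the lowest values. *eif-3.I*, a WD-repeat subunit that sits on eIF3B, had 181.2, 173.9 and 159.0 CPM in the 88 h controls and 129.1, 138.0 and 136.7 CPM after auxin. Every depleted library was below every control, with a log2 fold change of -0.35 (SE 0.08, 95% interval -0.51 to -0.18, limma adjusted p = 0.315). *eif-3.G*, the RNA-binding subunit of the same module, had 187.8, 162.8 and 169.3 CPM in controls and 145.2, 145.8 and 147.8 CPM after auxin. Its depleted libraries lay within 3 CPM of each other and below all controls, with a log2 fold change of -0.24 (SE 0.06, interval -0.38 to -0.11, limma adjusted p = 0.459). *eif-3.B* had 277.1, 275.0 and 267.3 CPM in controls and 169.1, 227.1 and 188.7 CPM after auxin, a log2 fold change of -0.50 (SE 0.19, interval -0.92 to -0.07, limma adjusted p = 0.765).

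Among the core subunits the differences were smaller. *eif-3.C* had 424.0 to 436.6 CPM in controls and 388.0 to 411.0 CPM after auxin, with a log2 fold change of -0.11. *eif-3.E* was at -0.15 and *eif-3.H* at -0.14. *eif-3.L*, by contrast, had 71.9, 73.5 and 71.2 CPM in controls and 78.9, 80.0 and 79.6 CPM after auxin, a log2 fold change of 0.14 (interval 0.02 to 0.26, limma adjusted p = 0.778), and all depleted libraries were above all controls. *eif-3.K*, *eif-3.D* and *eif-3.F* overlapped between the groups, at -0.13, -0.07 and 0.05. *egl-45*, *cif-1* and *eif-3.J* had log2 fold changes of -0.18, -0.12 and -0.19 with overlapping libraries.

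Other genes of the translation machinery had mostly negative values at 88 h. None of the 81 cytosolic ribosomal protein genes passed the test, though all 81 had a negative log2 fold change, with a median of -0.31, and 34 had an unadjusted p under 0.05, where 5.95% of all genes did. None of the 30 further initiation factors measured passed either, their median was -0.09, and 22 of them were negative. The proteasome lid, built like the eIF3 core, was at 0.11 (7 of 8 genes positive) and the COP9 signalosome at 0.07 (5 of 6 positive). The rRNA share was 5.38 to 8.11% in the depleted and 4.48 to 5.57% in the control libraries at 88 h. Its part in the result was not tested. With values scaled to the sum outside rRNA genes the median of the members was -0.07, and that of all genes moved from -0.02 to 0.05. Such scaling shifts every gene of a library alike, so the members kept their place relative to all genes, and it cannot decide that part. The 6 sperm markers, all negative at both times, had a median of -0.46 at 88 h (101.3 to 180.4 CPM summed against 140.1 to 343.8 in controls). At 88 h all 6 body wall muscle markers were negative as well (median -0.18), as were 7 of 8 germ line markers (median -0.09), and none of these markers passed the test. The part of cell composition was not tested. In whole animals, fewer cells of a type and less RNA per cell cannot be told apart.

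**Figure D2:**
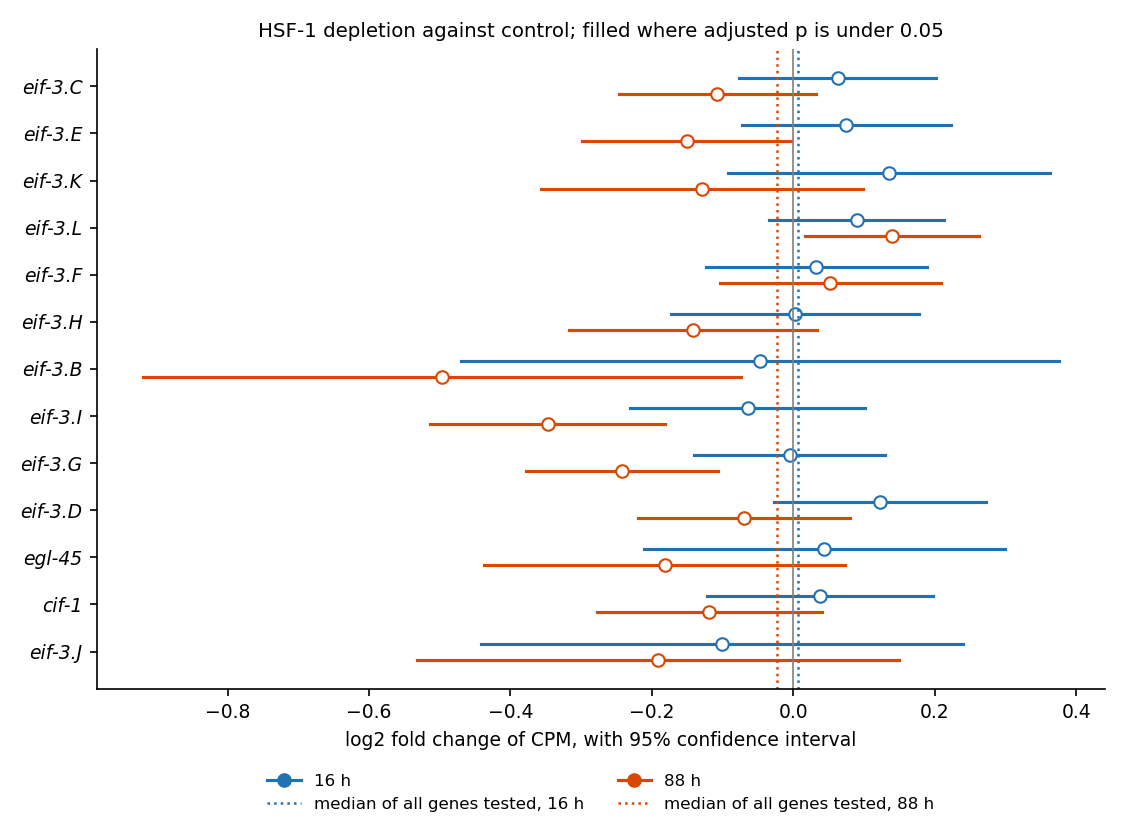
Log2 fold change of CPM, HSF-1 depletion against control, at 16 h (blue) and 88 h (orange) with 95% confidence intervals from the fit without a replicate block; dotted lines mark the median of all genes tested. All symbols are open because no gene shown passed an adjusted p of 0.05; at 88 h the intervals of *eif-3.B*, *eif-3.E*, *eif-3.G*, *eif-3.I* and *eif-3.L* exclude 0.

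The difference between the 2 durations was tested directly. For 0 of the 10 members did the change at 88 h differ from that at 16 h by the limma test, as for 0% of all genes, while 3 members (*eif-3.E*, *eif-3.G* and *eif-3.I*) and 1.91% of all genes had an unadjusted p under 0.05. The estimates were -0.28 for *eif-3.I* (interval -0.52 to -0.05), -0.24 for *eif-3.G* (-0.43 to -0.05) and -0.23 for *eif-3.E* (-0.43 to -0.02), with a median of -0.21 over the members and -0.02 over all genes.

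The controls of the 2 durations, whose exposure to ethanol began at different stages and lasted 16 or 88 h, showed no called eIF3 gene either. Of the 10 members 0 passed the limma test between 88 h and 16 h controls and 1 (*eif-3.I*) had an unadjusted p under 0.05, against 9.89% and 33.2% of all genes. *eif-3.I* had 140.3, 151.9 and 155.5 CPM at 16 h and 159.0 to 181.2 CPM at 88 h, a log2 difference of 0.20 (SE 0.08, limma adjusted p = 0.0953). *eif-3.B* had 149.6 to 254.9 and 267.3 to 277.1 CPM (0.37, SE 0.19, limma adjusted p = 0.199). These 2 members had higher values in every 88 h than in any 16 h control, and *eif-3.F* and *eif-3.L* lower ones, where 21.7% of all genes were higher and 15.4% lower without overlap. This comparison shares its 88 h libraries with the 88 h depletion comparison. For the other 8 members the difference lay between -0.09 and 0.06. Summed markers of body wall muscle (1700 to 1820 CPM at 16 h, 3154 to 4719 at 88 h) and hypodermis (2048 to 2874, 3397 to 4117) were higher in 88 h controls. Those of sperm were higher too (14.3 to 94.7, 140.1 to 343.8). Sums of germ line, intestinal, neuronal and pharyngeal markers overlapped. The part of composition in this comparison was not tested.

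The second experiment set the RNA of germline nuclei beside that of the whole worm. In wild type, *eif-3.D* and *eif-3.L* were lower in nuclei, 2 of the 10 members, and 0 were higher (limma over 13613 genes, all 12 libraries). Over all genes 35.3% passed, 19.4% lower and 15.9% higher. The median log2 difference of the members was -0.45, against -0.34 for all genes. In *daf-2*, 5 members were lower (*eif-3.D*, *E*, *G*, *K* and *L*) and 1 was higher (*eif-3.I*), where 53.3% of all genes passed, 32% lower and 21.3% higher, and the medians were -0.57 for the members and -0.63 for all genes. Read against these shares, 5 of 10 lower calls in *daf-2* lie above 32% and 1 of 10 higher calls below 21.3%, differences that were not tested. The members differed among themselves, from *eif-3.K* at the bottom to *eif-3.I* at the top in *daf-2*.

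*eif-3.K* had the lowest nuclear values. It had 0.698, 3.41 and 2.27 CPM in wild-type nuclei, or 5, 24 and 23 reads, and 20.8, 31.4 and 20.0 CPM in wild-type worms. In *daf-2* nuclei it had 0, 122 and 0 reads, where 0 reads allow up to 0.418 CPM in the first and 0.470 CPM in the third library, and 10.9 CPM in the second, against 45.9, 34.1 and 30.1 CPM in *daf-2* worms. All nuclei were below all worms in both genotypes, and the only *daf-2* nuclei library with reads was the one that stood apart in rRNA and mitochondrial share. The log2 difference was -6.62 in *daf-2* (SE 1.43, limma adjusted p = 0.00155). Its size depends on how 0 reads are set on the log scale, with -3.32 under a pseudocount of 2, and is no bound. Set against the 3-read floors, the mean of the *daf-2* worms (36.7 ± 8.23 CPM, SD, n = 3) was at least 87.8-fold higher than the first and at least 78.01-fold higher than the third nuclei library. In wild type it was -3.75 (SE 1.43, adjusted p = 0.055), which missed the threshold, and passed it when nuclei and worms of equal number were blocked as pairs (adjusted p = 0.0323).

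*eif-3.L*, the partner of K in the ring, had 12.7, 15.9 and 6.95 CPM in wild-type nuclei and 29.0, 31.2 and 23.7 CPM in wild-type worms. In *daf-2* it had 11.5, 15.1 and 12.5 CPM in nuclei and 37.7, 36.8 and 33.9 CPM in worms. The groups did not overlap in either genotype, and the log2 difference was -1.31 (SE 0.31, limma adjusted p = 0.00519) in wild type and -1.48 (SE 0.31, adjusted p = 0.00135) in *daf-2*. Leaving out any of the libraries kept both calls.

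*eif-3.D* had 12.05, 11.5 and 10.997 CPM in wild-type nuclei and 32.1, 57.7 and 43.8 CPM in wild-type worms. The log2 difference was -1.91 (SE 0.60, limma adjusted p = 0.0241), a call that was lost without any of the 3 wild-type nuclei libraries (adjusted p = 0.0571, 0.0604 and 0.0631) and without the second or the third worm library (0.0962 and 0.0632). In *daf-2* nuclei it had 14.4, 16.9 and 1.95 CPM, the last from 12 reads, against 54.6, 82.7 and 75.3 CPM in worms, a log2 difference of -3.16 (SE 0.60, adjusted p = 0.000626). Without the third nuclei library this was -2.16 with an adjusted p of 0.00341, still past the threshold. *rpap-2*, which overlaps its end, also was lower in nuclei, at -1.43 in wild type and -1.89 in *daf-2* (adjusted p = 0.00159 and 9.49e-05).

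*eif-3.G* had 35.4, 43.4 and 36.0 CPM in wild-type nuclei and 50.6, 59.4 and 51.8 CPM in worms, without overlap but short of the threshold (log2 difference -0.50, SE 0.24, limma adjusted p = 0.123). In *daf-2* the nuclei had 19.7, 27.2 and 18.6 CPM and the worms 45.5, 65.7 and 62.5 CPM, a log2 difference of -1.41 (SE 0.24, adjusted p = 0.000261). *eif-3.E* was at -0.61 (adjusted p = 0.107) and -0.78 (adjusted p = 0.031) and *eif-3.I* at 0.17 (adjusted p = 0.622) and 0.72 (adjusted p = 0.0292) in wild type and *daf-2*. Both *daf-2* calls were weak. That of *eif-3.E* was lost without the third nuclei library (adjusted p = 0.129) or the second or the third worm library (0.112 and 0.0847), and that of *eif-3.I* without the second nuclei library (0.134) or any worm library (0.0624, 0.0699 and 0.0569). In wild type, *eif-3.E* passed without the first nuclei library (adjusted p = 0.0457).

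The other core and scaffold subunits did not pass the test in either genotype. *eif-3.C*, the member with the most CPM, had 218.5, 172.7 and 137.2 CPM in wild-type nuclei against 134.0, 139.8 and 134.1 in worms, and 221.5, 219.9 and 187.6 CPM in *daf-2* nuclei against 105.0, 177.3 and 152.1 in worms. It was higher in all *daf-2* nuclei than in any *daf-2* worm library, at 0.56 log2 units (interval 0.05 to 1.08, limma adjusted p = 0.0607), and passed without the second worm library (adjusted p = 0.0406). *eif-3.F* was at 0.03 (interval -0.60 to 0.66) and 0.21 (-0.42 to 0.83), *eif-3.H* at -0.40 (-1.22 to 0.42) and 0.39 (-0.44 to 1.21), and *eif-3.B* at -0.29 (-0.93 to 0.35) and -0.37 (-1.01 to 0.27).

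**Figure D3:**
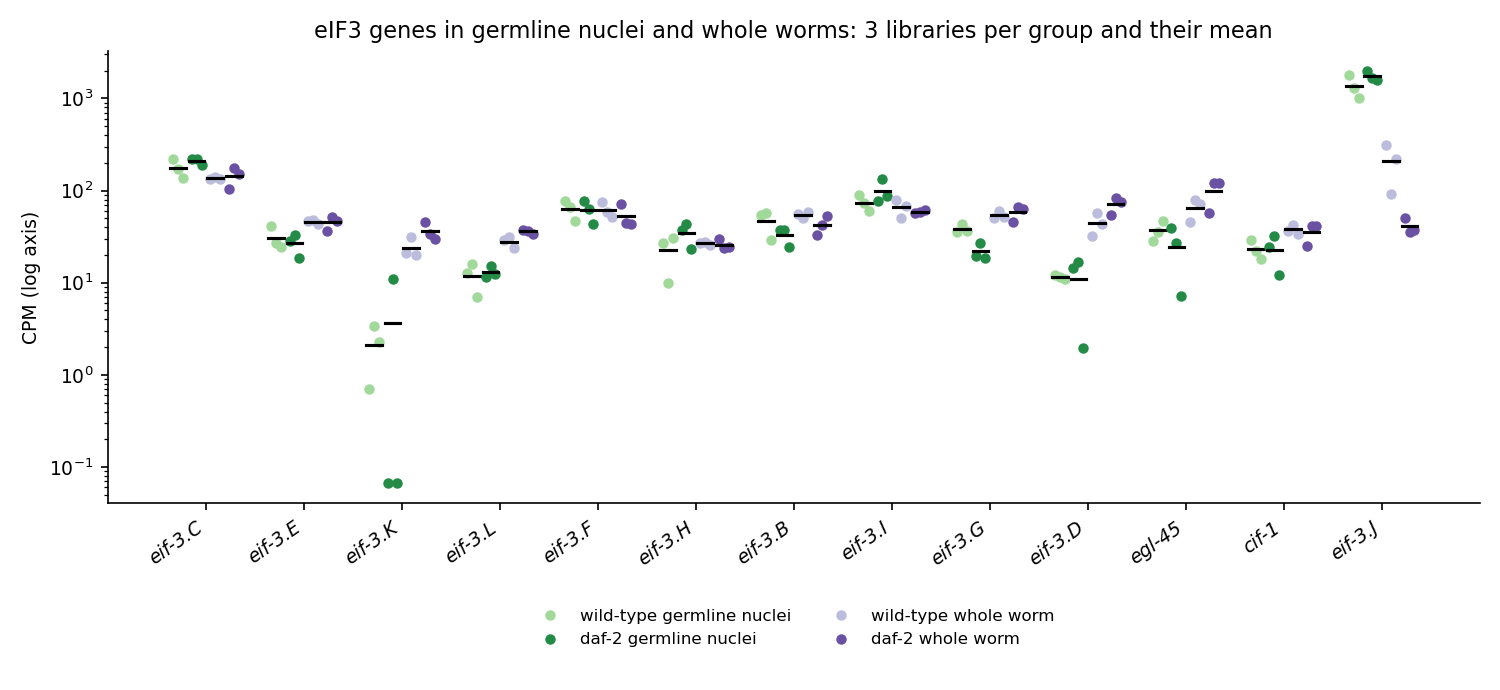
CPM (log axis) of the 13 eIF3 genes in germline nuclei and whole worms of wild type and *daf-2*; each point is a library and each black bar a mean of 3. *eif-3.K* falls to 0 reads in 2 *daf-2* nuclei libraries (drawn at the lowest value of the table), and *eif-3.J* reaches 1001 to 1968 CPM in nuclei against 35.4 to 314.4 CPM in worms.

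These directions rest on the scaling of the table, since the nuclei carried far more rRNA. When values were scaled to the sum outside rRNA genes, the median of all genes went from -0.34 to -1.15 in wild type and from -0.63 to -1.76 in *daf-2*, and all calls from 2170 higher and 2638 lower to 1186 and 5133 in wild type and from 2898 and 4358 to 1569 and 7317 in *daf-2*. On that scale 8 members were lower and 0 higher in each genotype, with medians of -1.25 and -1.70, and all 10 estimates were negative in both, including those of *eif-3.C*, *eif-3.F* and *eif-3.I*, and of *eif-3.H* in *daf-2*, that were positive before. *eif-3.I* in *daf-2* lost its call at -0.40 (limma adjusted p = 0.17). Relative to the median of all genes the members kept their places, since this scaling shifts every gene of a library alike: *eif-3.K* was 3.41 below it in wild type (-3.41) and 5.99 below in *daf-2* (-5.99), *eif-3.D* at -1.57 and -2.53, *eif-3.L* at -0.97 and -0.85, and *eif-3.I* at 0.51 and 1.35. Differences between members within a library do not depend on it.

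Of the further subunits, *eif-3.J* went the other way. It had 1799, 1287 and 1001 CPM in wild-type nuclei and 314.4, 91.1 and 221.0 CPM in wild-type worms, and 1968, 1676 and 1584 CPM in *daf-2* nuclei against 50.9, 35.4 and 37.4 CPM in *daf-2* worms. Every nuclei library exceeded every worm library by a wide margin, at 2.84 log2 units in wild type (SE 0.38, limma adjusted p = 0.000105) and 5.41 in *daf-2* (SE 0.38, adjusted p = 2.06e-07). It stayed higher under each alternative tried, the scaling outside rRNA genes included, at 1.88 to 3.22 in wild type and 4.29 to 5.58 in *daf-2*. *egl-45*, which encodes the largest subunit, was lower in *daf-2* nuclei (39.0, 27.2 and 7.12 CPM against 57.7, 119.4 and 119.6 in worms, a log2 difference of -2.26, SE 0.51, adjusted p = 0.00216) and at -0.81 in wild type (adjusted p = 0.236). *cif-1* was at -0.73 and -0.71 (adjusted p = 0.121 and 0.101).

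**Figure D4:**
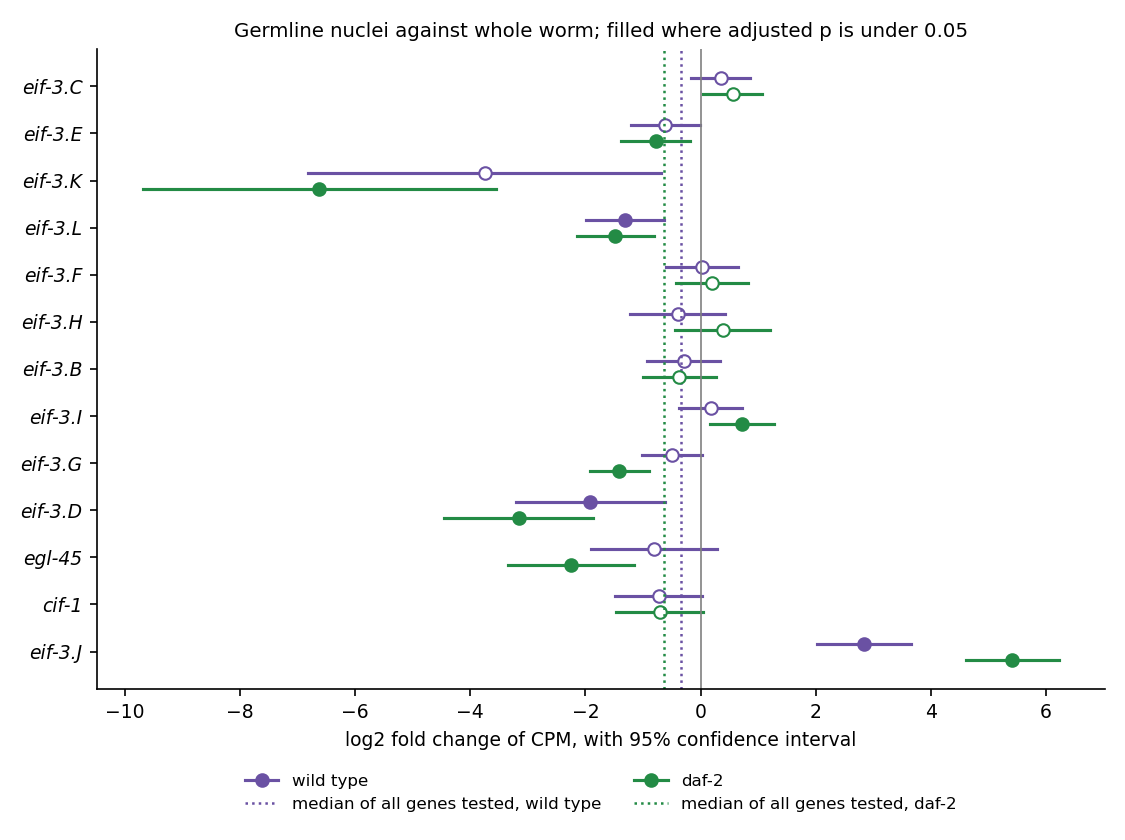
Log2 fold change of CPM, germline nuclei against whole worm, with 95% confidence intervals, in wild type (purple) and *daf-2* (green); filled symbols passed an adjusted p of 0.05 and dotted lines mark the median of all genes tested. *eif-3.K*, *eif-3.D* and *eif-3.L* lie left of both medians and *eif-3.J*, at 2.84 and 5.41, far to the right.

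Because of this spread the order of the members per length was another one in nuclei. In wild-type nuclei *eif-3.C* (58.5 ± 13.5 CPM per kb), *eif-3.I* (57.8 ± 11.3) and *eif-3.F* (50.6 ± 12.5) came first and *eif-3.D* (6.37 ± 0.29), *eif-3.L* (6.04 ± 2.30) and *eif-3.K* (2.53 ± 1.62) last, a range of 23.1-fold, with 2 of 9 neighboring pairs free of overlap. In *daf-2* nuclei *eif-3.I* (77.6 ± 22.7) and *eif-3.C* (69.6 ± 6.36) led and the same 3 genes were last, with 3 of 9 pairs free of overlap. The mean of *eif-3.K* there, 4.37 ± 7.44 CPM per kb, came from 1 library, so no ratio of highest to lowest is given. In whole worms of the same experiment the range was 3.61-fold in wild type and 3.29-fold in *daf-2*, and only 3 and 1 of the 9 pairs did not overlap. These whole worms were led by *eif-3.I* (51.5 ± 11.5) in wild type and by *eif-3.G* (53.96 ± 10.1) in *daf-2*. Levels of the 2 experiments come from tables normalized separately and were not tested against each other.

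The next question was whether reduced insulin signaling changed eIF3 expression in germ cells. In *daf-2* against wild-type nuclei 0 of the 10 members passed the limma test fitted to the 6 nuclei libraries, and 1 (*eif-3.G*) had an unadjusted p under 0.05, against 3.85% and 20.9% of all genes. The median of the members was -0.13 and that of all genes -0.15. *eif-3.G* had 35.4 to 43.4 CPM in wild type and 18.6 to 27.2 CPM in *daf-2*, all *daf-2* libraries lower, with a log2 fold change of -0.82 (SE 0.23, interval -1.37 to -0.28, adjusted p = 0.102). In a fit to all 12 libraries it passed (adjusted p = 0.0378). It was the sole member without overlap, while 14.9% of all genes were lower in that way. The intervals of the other members were wide, from -0.22 to 0.76 for *eif-3.C* at the narrowest to -7.40 to 2.88 for *eif-3.K*. Without the third *daf-2* nuclei library, the one with 12 reads of *eif-3.D*, the median of the members was 0.20. Of the 81 cytosolic ribosomal protein genes, 3 were lower and 0 higher, with a median of -0.82 and all 81 negative, and *ifet-1*, a germline repressor that binds the cap-binding protein, was at 1.29 (SE 0.28, adjusted p = 0.0568), and passed with all 12 libraries in the fit (0.0457), with median-of-ratios (0.0344) or quantile scaling (0.00699) and with scaling outside rRNA genes (0.013). The 6 sperm markers summed to 166.6 to 261.5 CPM in *daf-2* and 414.9 to 574.4 CPM in wild-type nuclei, and their part in the eIF3 values was not tested.

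In whole *daf-2* worms against wild type, again 0 of the 10 members passed and 1 (*eif-3.D*) had an unadjusted p under 0.05, where 18% and 36.4% of all genes did. The medians were 0.01 for the members and -0.02 for all genes. *eif-3.D* was at 0.69 (SE 0.29, limma adjusted p = 0.117) with overlapping libraries, *eif-3.K* at 0.62 (SE 0.29, adjusted p = 0.147) and *eif-3.L* at 0.38 (SE 0.25, adjusted p = 0.284), the last without overlap, as were 18.4% of all genes in that direction. *eif-3.B* was lowest at -0.39. *eif-3.J* fell, with a log2 fold change of -2.19 (SE 0.41, adjusted p = 0.00652), from the 91.1 to 314.4 CPM to the 35.4 to 50.9 CPM given above. The 8 intestinal markers had a median of 1.96 in this comparison and the 4 pharyngeal markers -1.47, with summed levels of 3162 to 6630 against 988.1 to 2381 CPM and 27.1 to 37.4 against 47.5 to 107.0 CPM. Summed hypodermal markers were also higher (1221 to 1449 against 626.6 to 996.8 CPM). Summed neuronal (53.5 to 57.0 against 70.5 to 101.6) and sperm markers (99.5 to 138.0 against 166.3 to 344.8) were lower. Sums of germ line and body wall muscle markers overlapped. The part of these differences in the eIF3 values was not tested.

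Whether the effect of *daf-2* in nuclei differed from that in whole worms was tested as an interaction, which 0 of the 10 members and 0.103% of all genes passed (limma, all 12 libraries). 1 member (*eif-3.G*) and 12.2% of all genes had an unadjusted p under 0.05. *eif-3.G* was at -0.91 (interval -1.64 to -0.19, adjusted p = 0.274) and *eif-3.K* at -2.87 (-7.21 to 1.46). Without the second *daf-2* nuclei library *eif-3.K* passed (-5.32, adjusted p = 0.0204), but both remaining libraries then have 0 reads, so this value is set by the lowest value of the table, and under a pseudocount of 2 the estimate from all libraries was -0.63. *eif-3.J* was at 2.58 (interval 1.43 to 3.72, adjusted p = 0.0705), and passed with the replicate block (0.0435), quantile scaling (0.0351), a pseudocount of 2 (0.0328) and without the second wild-type worm library (0.00633). These comparisons share libraries with those above.

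The 30 further initiation factors were also mixed between nuclei and worms. In wild type 8 were higher and 11 lower in nuclei and in *daf-2* 9 and 13, with medians of -0.66 and -0.65. Over all genes these shares were 15.9% higher and 19.4% lower in wild type and 21.3% and 32% in *daf-2*. Those with the smallest adjusted p in wild type were *eif-1.A*, which helps the small subunit to scan (-2.66, SE 0.27), *ncbp-2*, the small subunit of the nuclear cap-binding complex (-3.67, SE 0.36), *ife-3*, a cap-binding eIF4E isoform (-2.53, SE 0.35), and *gcn-1*, an activator of the eIF2 kinase GCN-2 (2.01, SE 0.28), with limma adjusted p from 2.59e-05 to 0.000155. In *daf-2* they were *eif-1.A* (-3.61), *iffb-1*, the eIF5B that joins the ribosomal subunits (4.98), *gcn-1* (3.32) and *ncbp-2* (-3.83). *iffb-1* had 4202 to 4738 CPM in wild-type and 3791 to 6743 CPM in *daf-2* nuclei, against 320.4 to 1076 and 126.3 to 231.1 CPM in worms, a contrast of the same direction as that of *eif-3.J*. In whole worms *iffb-1* (-1.88, adjusted p = 0.0161), *gcn-1* (-1.24, adjusted p = 0.0283) and *pab-2*, a relative of the polyA-binding protein gene *pab-1* (-0.87, adjusted p = 0.0413), were lower in *daf-2*, calls that were each lost without the first or the third wild-type library or the second or the third *daf-2* library. Between these whole worms, 18% of all genes were called in either direction. In the depletion comparisons 0 of the 30 were called (limma), with an unadjusted p under 0.05 for 0 at 16 h and 6 at 88 h. Over all genes, 0.0792% and 0.103% were called there, and 4.43% and 5.95% had such a p. In nuclei between genotypes 0 of the 30 were called and 7 had such a p, against 3.85% and 20.9% of all genes. *pab-1*, a polyA-binding protein and one of the most highly expressed, was at -0.26 after 88 h of auxin (interval -0.70 to 0.18).

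Of the 8 genes measured of the proteasome lid, built like the eIF3 core, 5 were lower and 1 higher in nuclei in each genotype (medians -1.13 and -1.69). Of the 6 COP9 signalosome genes, 5 were lower and 0 higher (medians -1.45 and -1.60). These counts stand against the 19.4% and 32% of all genes that were lower. In whole *daf-2* worms 1 COP9 gene was higher, where 18% of all genes were called in either direction, and all 6 had positive values with a median of 0.80.

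Across the 12 libraries of each table the members moved with each other to unequal degrees, as a description only, since the libraries share depth and scaling. Profiles were centered but not brought to equal spread, so members of wide spread weigh most in a mean that holds them. In the nuclei experiment this is *eif-3.K* above all, with 0 reads in 2 libraries. The correlations there also hold the difference between nuclei and worms. In the depletion experiment the correlation of a member with the mean of the other 9 was 0.71 for *eif-3.G*, 0.71 for *eif-3.C*, 0.66 for *eif-3.D* and *eif-3.E*, and -0.32 for *eif-3.L*. *cif-1*, with 0.82, was above all members. In the nuclei experiment it was 0.90 for *eif-3.D*, 0.89 for *eif-3.E* and 0.80 for *eif-3.K*, but -0.53 for *eif-3.C* and -0.42 for *eif-3.I*, and *eif-3.J* stood at -0.79. The genes with profiles most like the mean of the members over 12 libraries were T28D6.6 (r = 0.89), *hrpk-1* (0.87) and *vig-1* (0.86), followed by *cpr-9*, *pid-4*, *nse-1*, *immt-2* and M03C11.6 (0.83 to 0.85), in the depletion experiment. In the nuclei experiment they were *jamp-1* (0.98), *dcaf-13* (0.98), *sti-1* (0.98), *sec-31* (0.97), *bre-3* (0.97), *eif-2Bepsilon* (0.97), *dsbn-1* (0.97) and F26F4.5 (0.97).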

How the data were processed

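The authors aligned reads with STAR to WBcel235 (ce11), counted them per gene with featureCounts, multi-mapped and overlapping reads as fractions, removed genes of low expression, and deposited log2 CPM from edgeR in 2 tables of 12 libraries. 3 further deposited tables hold the authors' own fold changes and p-values and were not used. Values were used as deposited, with no pseudocount, and unlogged for CPM, whose sums ran from 424276 to 2688300 per library under the deposited scaling. Reads per library came from the spacing of the 2000 lowest values, of which 48.4 to 85.4% were within 0.05 of a whole number. Intervals and floors (3 reads) cover counting error only, or, for fold changes, the spread between libraries at 95%.

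Tests used limma 3.58.1 in R 4.3.3 (lmFit, then eBayes with its trend option), with two-sided p-values adjusted by Benjamini-Hochberg across the genes kept. The depletion comparisons and those of nuclei with worms were fitted to 12 libraries and the *daf-2* comparisons to 6. No table gave counts, so no count model was run. In simulated data, 100 genes were shifted by 1 and 100 by 3 log2 units. The fit found 54 to 71% of the smaller and 91 to 96% of the larger shifts in the depletion comparisons. Between whole worms of the genotypes it found 16% and 96%, and in the comparisons with nuclei 0 to 4% and 32 to 56%. Far more genes passed in the real comparisons of nuclei with worms (4808 and 7256), which eases the adjusted threshold, so these rates need not carry over. A missing call among nuclei or whole worms is not read as no change. Alternatives were pseudocounts of 0.1 and 2, no filter, no trend, other samples in the fit, median-of-ratios and quantile scaling, a replicate block and leaving out each library. Scaling outside rRNA genes and the blocks by pairs were added after the data were seen.

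The members and lists were chosen with earlier results of these data known. Named were the 10 members, the 3 further subunits, up to 4 further initiation factors per comparison with the smallest adjusted p (or the 2 of highest level), 8 genes of like profile per table and *hsf-1*, *hsp-90*, *hsp-1* and *daf-2* as checks. *daf-2(e1370)* is a point mutation, so the level of *daf-2* checks no label. Of 31 further initiation factors listed, 30 matched a name. The study calls its replicates biological. It kept whole worm lysate as well as nuclei from its nuclei preparations, without saying which libraries came from the same one. The replicates are not described further, so p-values measure the spread between these libraries. Same-numbered libraries counted as pairs where their deviations from the group means correlated above 0.1 in every pair, which held for control and depletion at 16 h (0.121 to 0.624) and 88 h (0.274 to 0.664) and for wild-type nuclei and worms (0.113 to 0.138), not for *daf-2* nuclei and worms (0.0729 to 0.0966). Unequal numbers reached 0.421 at 88 h, where 2 of 3 numbers correlated best with their own. In *daf-2* nuclei and worms unequal numbers reached only -0.0352, and 3 of 3 correlated best with their own. The 0.1 limit may thus have missed pairs there. The main fits used no block, so their SEs, intervals and p-values leave this pairing out.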

Additional observations from a re-analysis of the deposited data

How the results depend on the processing

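In the 4 whole-animal comparisons of the depletion experiment 0 members passed under any alternative. With all 12 libraries in the fit, 1 member (*eif-3.G*, lower) passed between the genotypes in nuclei, and with the replicate number as a block 1 member (*eif-3.D*, higher, adjusted p = 0.0295) passed in whole worms. For wild-type nuclei against worms, 1 member passed without the trend, 3 with the replicate block or the pairs, 8 with scaling outside rRNA genes, and 1 to 2 when libraries were left out. *eif-3.K* also passed there with quantile scaling and with pseudocounts of 0.1 or 2 (adjusted p = 0.0162, 0.0215 and 0.000415). The scaling outside rRNA genes reversed *eif-3.F* in wild type (-0.78) and *eif-3.C* (-0.56), *eif-3.F* (-0.92) and *eif-3.I* (-0.40) in *daf-2*, by construction a shift of whole libraries. It also turned the uncalled values of *eif-3.C* (-0.46) and *eif-3.I* (-0.63) in wild type and of *eif-3.H* (-0.74) in *daf-2*. The call of *eif-3.D* in wild type was lost without the trend (adjusted p = 0.0588), and those of *eif-3.E* and *eif-3.I* in *daf-2* with quantile scaling (0.0941 and 0.0965) or without the trend (0.0703 and 0.08). For *daf-2* nuclei against worms 4 to 6 members passed when libraries were left out, 7 with the replicate block and 6 with the pairs. In the test of nuclei against worms for the *daf-2* effect, 0 to 1 did. The blocks changed no other call of a member than those of *eif-3.D* and *eif-3.K* above and of *eif-3.C* in *daf-2* nuclei against worms (adjusted p = 0.0499). Where not stated, the cause was not tested.

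Counts over all genes moved more. The 1250 calls between the controls went from 0 to 3164, with 1250 higher and 1283 lower under quantile scaling and 656 and 595 outside rRNA genes, against 961 and 289. The 524 calls between nuclei of the genotypes went from 0 to 1791 (243 higher and 831 lower outside rRNA genes, against 183 and 341), the 2453 between worms from 778 to 4122, the 4808 for wild-type nuclei against worms down to 3150 without the second worm library, the 14 of the interaction from 0 to 181 (16 higher and 10 lower under quantile scaling, 1 and 11 outside rRNA genes, against 3 and 11), and the 10 and 13 of the depletion comparisons down to 6 and 8. Depth limits the nuclei most, where *eif-3.K* rests on 0 to 122 reads.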
